A study of Nothobranchius furzeri with 16 samples.

Results

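The splicing factors and RNA-binding proteins of the killifish brain were followed in ribosome footprints and, where possible, in RNA. Members were all gene symbols of the footprint table that begin with SRSF, SRPK, HNRNP, SF3A, SF3B, SNRP, PRPF, ELAVL, or RBM and a digit, with copies of a gene (marked 1of2, 2of2 and so on) kept apart. The rule found 121 of 28494 symbols. They comprised 52 RNA-binding motif (RBM) proteins, 17 heterogeneous nuclear ribonucleoproteins (hnRNPs), 17 pre-mRNA processing factors (PRPF), 8 SR proteins (SRSF), 8 proteins of the small nuclear ribonucleoproteins (SNRP), 7 subunits of SF3A and SF3B, 7 Hu proteins (ELAVL) and 5 SR protein kinases (SRPK).

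Introns are removed by the spliceosome, in which small nuclear ribonucleoproteins recognise the splice sites and the branch point. PRPF proteins take part in the steps that lead to catalysis. SR proteins and hnRNPs bind exons and introns of the transcript and promote or repress the use of nearby splice sites, and SRPK kinases phosphorylate the SR proteins. Neurons use many alternative exons, and the Hu proteins are RNA-binding proteins that stabilise and splice neuronal transcripts.

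The samples were brains of male Nothobranchius furzeri, an annual killifish, of the strain MZM-04/10p, at 26 weeks (old) and 6 weeks (young) of age. Each age had 4 libraries of ribosome footprints (ART-seq, the RNA fragments protected by ribosomes, prepared without removal of ribosomal RNA) and 4 libraries of RNA, numbered I to IV, 16 in all. The titles of the old RNA libraries carry the number 22, whereas their age label reads 26 weeks, and the age label was used. Nothing in the labels ties a library to its own fish, so the spread behind the p-values is that of libraries and may be technical.

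Footprint values were TPM (FPKM, fragments per kilobase and per 1000000 mapped fragments, rescaled to sum to 1000000 per library). They were also read back into numbers of reads, because the values of nearly all symbols stood in whole-number ratios once each library's own step was taken out. The reads recovered in this way numbered 3939, 2987, 3409 and 1813 in the 26-week libraries I to IV and 2025, 959, 816.5 and 301 in the 6-week libraries I to IV. The symbol BX296557.7 alone took 67.9% to 95.6% of the TPM of a library and gave no whole reads. All symbols that gave no reads, with this one, held from 90.5% of TPM in the 6-week library IV to 99.6% in the 26-week library IV. Shares of recovered reads are thus shares of the reads on the remaining symbols. A read in the 6-week library IV weighed 131 times as much in TPM as a read in the 26-week library IV, so TPM and reads are given side by side for the members on which a value turns. Of the cell type markers, all 11 neuronal genes were above 0, with 162 reads at 26 weeks and 65 reads at 6 weeks, whereas the 13 photoreceptor genes and the 4 lens genes had no value above 0. Neuronal markers took 0.909% to 2.21% of reads at 26 weeks and 1.33% to 1.88% at 6 weeks. Astroglial markers, of which 4 of 7 genes were above 0 and GLUL, SLC1A3 and AQP4 at 0, took 0.381% to 1.04% of reads at 26 weeks (86 reads) and 0% to 0.980% at 6 weeks (18 reads). Oligodendrocyte markers, of which 5 of 7 genes were above 0 and MOG and OLIG2 at 0, took 0.221% to 0.736% at 26 weeks and 0.612% to 2.00% at 6 weeks. Skeletal muscle markers, of which 7 of 13 genes were above 0, held 9 reads at 26 weeks and 7 reads at 6 weeks. In whole brain, fewer cells of a type and less RNA per cell cannot be told apart.

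Of the 121 members, 73 (60.3%) were above 0 in at least 1 footprint library, against 6472 of 28494 (22.7%) of all symbols. The other 48 members were at 0 in all 8 libraries, where 0 of 16249 recovered reads allows a share of up to 0.0185%. Members were also detected in more libraries each. Of the 73, 33 (45.2%) were above 0 in exactly 1 library, against 60.0% of all symbols above 0, and 2 members were above 0 in all 8. Together 30 members were above 0 only at 26 weeks, 14 only at 6 weeks and 29 at both ages. Of the members above 0, 41.1% were thus at 0 in every 6-week library, against 61.5% of all symbols above 0, and 19.2% were at 0 in every 26-week library, against 14.0% of all symbols.

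**Figure D1:**
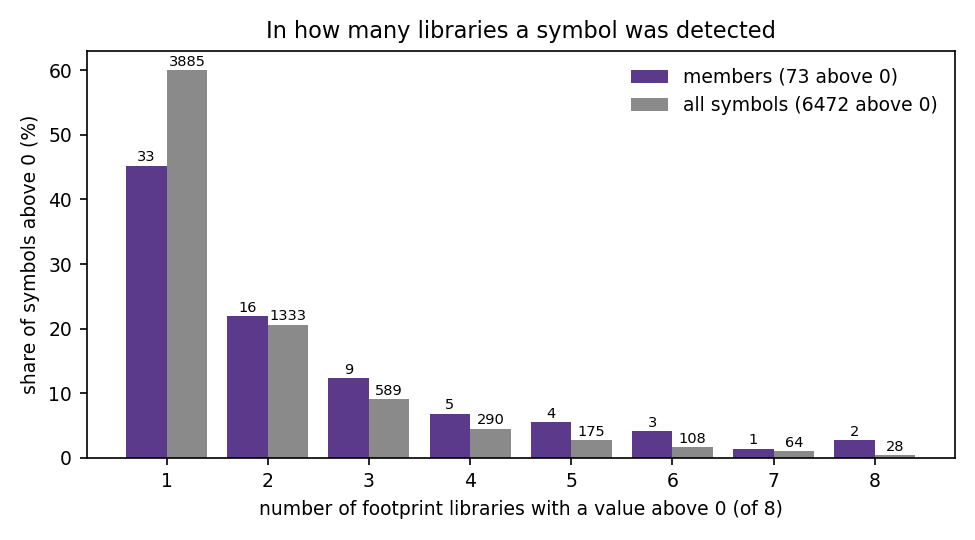
Share of symbols (y axis, percent of symbols above 0) by the number of footprint libraries with a value above 0 (x axis, of 8), for members and for all symbols. Bars carry the number of symbols, and 33 of 73 members against 3885 of 6472 symbols lie in the first pair.

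The members took a smaller share of the recovered reads in old brains. Their share was 1.75%, 1.27%, 1.26% and 1.71% in the 26-week libraries I to IV and 2.37%, 2.29%, 2.08% and 2.55% in the 6-week libraries I to IV. The 2 ages did not overlap, although the exact 95% Clopper-Pearson interval of each library, which covers counting error only, was wide: 1.16% to 2.42% for 31 reads in the 26-week library IV, and 1.15% to 5.17% for the reads in the 6-week library IV. The mean was 1.5% ± 0.27 at 26 weeks and 2.32% ± 0.19 at 6 weeks (SD, n = 4 each), a difference of -0.83 percentage points. Pooled over libraries, 181 of 12148 reads at 26 weeks and 94.7 of 4101 reads at 6 weeks gave a ratio of 0.645, with an exact interval of 0.499 to 0.833 for counting error.

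Depth differed between the ages, as did the mean shares of glial markers, and their part in this result was not tested. The mean of astroglial markers was higher at 26 weeks (0.732% against 0.423%) and that of oligodendrocyte markers lower (0.468% against 0.981%). In both lists the ages overlapped. The 6-week libraries had 301 to 2025 reads and the 26-week libraries 1813 to 3939. Between libraries of like depth, the share was 1.71% in the 26-week library IV (1813 reads) and 2.37% in the 6-week library I (2025 reads). Their exact intervals, 1.16% to 2.42% and 1.75% to 3.13%, overlapped, and with 1 library per age the part of depth was not tested. The largest contribution of 1 member came from HNRNPABA, without which the difference was -0.52 points and the libraries lay at 1.14% to 1.65% at 26 weeks and 1.66% to 2.19% at 6 weeks. Without all 17 hnRNPs the ages overlapped: the other 104 members took 0.536% to 0.883% of reads at 26 weeks and 0.857% to 1.36% at 6 weeks. These shares rested on 81 reads at 26 weeks and 43 reads at 6 weeks, and the difference in their mean was still -0.37 points. The hnRNPs alone overlapped as well, with a difference of -0.46 points. Their pooled ratio was 0.653 (0.460 to 0.926, exact interval for counting error), close to 0.645 for all members. The lower mean share at 26 weeks was thus not confined to the hnRNPs, but outside them it lay mostly on the RBM proteins. Their difference was -0.34 points, with a pooled ratio of 0.522 (0.296 to 0.936, exact interval for counting error). Their highest share, in the 6-week library IV, stood on 3 reads. The remaining groups had small differences of either sign, from -0.058 points (PRPF) to 0.081 points (SF3A and SF3B). Other genes of the pathway overlapped between the ages. A list of other spliceosome genes (60 symbols, 41 above 0) took 0.746% ± 0.096 of reads at 26 weeks and 1.02% ± 0.54 at 6 weeks (SD, n = 4 each). A list of other splicing regulators and RNA-binding proteins (90 symbols, 42 above 0) took 0.552% ± 0.066 at 26 weeks and 0.627% ± 0.143 at 6 weeks (SD, n = 4 each). Pooled over libraries, the ratios of the 2 lists were 0.958 (0.630 to 1.49) and 0.870 (0.546 to 1.43), with exact intervals for counting error. Both intervals overlapped that of the members, 0.499 to 0.833. No test of the difference between these lists and the members was made.

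**Figure D2:**
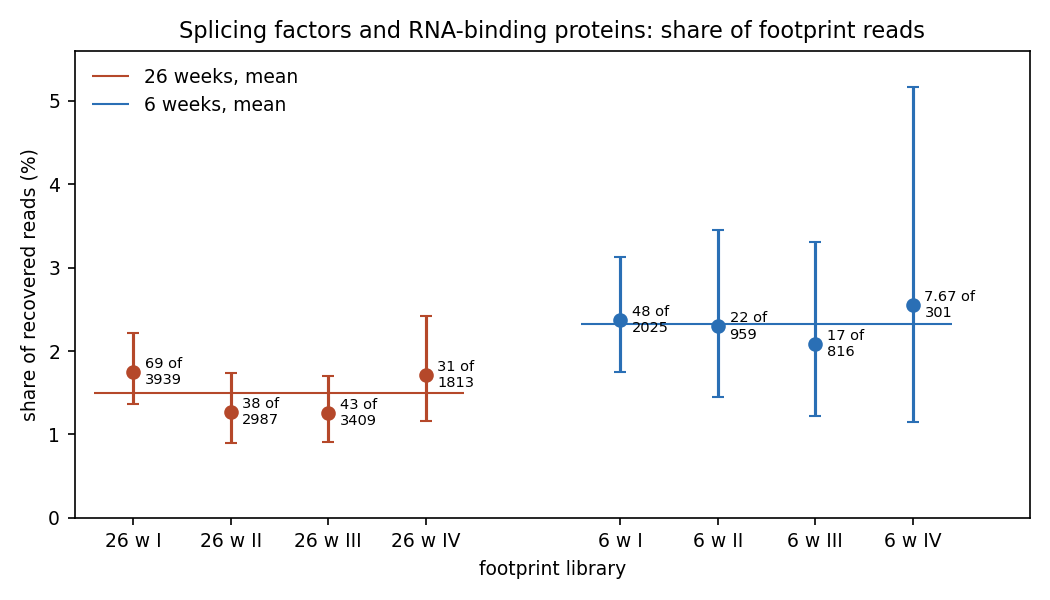
Share of recovered footprint reads that fell on the members (y axis, percent) in each library (x axis), 26 weeks at the left and 6 weeks at the right. Points carry the member reads and the library reads, bars are exact 95% Clopper-Pearson intervals and lines are group means, and the 4 libraries at 26 weeks lie at 1.26% to 1.75%, below 2.08% to 2.55% at 6 weeks.

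The reads lay on few members. In all, 275.7 reads fell on 72 members, of which 7 members with 10 or more reads held 47.4%, and 48 members were counted at 1 or 2 reads. Of these 48, 33 were above 0 in 1 library and were taken as 1 read each, which can understate them. The share of 47.4% depends on this rule. The hnRNPs led. These abundant nuclear proteins package transcripts and often repress splice sites. Their 17 symbols held 100 reads at 26 weeks and 51.7 reads at 6 weeks, or 0.814% ± 0.128 and 1.28% ± 0.26 of reads (SD, n = 4 each). The library ranges, 0.704% to 0.990% at 26 weeks and 0.938% to 1.55% at 6 weeks, overlapped.

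Only HNRNPA0L(2of3) and HNRNPABA were above 0 in every footprint library. HNRNPA0L(2of3), a copy of a gene that resembles the AU-rich element binding hnRNP A0, had 3, 6, 2 and 3 reads in the 26-week libraries I to IV, against 5, 1, 1 and 2 reads in the 6-week libraries I to IV. In TPM this was 35.8, 97.8, 34.8 and 6.90 at 26 weeks, against 73.8, 39.8, 38.8 and 601 at 6 weeks. The highest TPM value thus stood on 2 reads, in the 6-week library IV, and the ages overlapped in reads and in TPM.

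HNRNPABA, a copy of hnRNP A/B, which binds transcripts in the nucleus and the cytoplasm, had 6, 3, 4 and 1 reads at 26 weeks, against 6, 1, 3 and 2.67 reads at 6 weeks. Its value in the 6-week library IV was not a whole multiple of the lowest one. Taking 3 reads for the lowest value would make all 8 values whole and the counts 3 times as large, and the difference in the members' share would then be -1.42 points. Pooled over libraries, the share of reads on HNRNPABA was 0.373 times as high at 26 weeks as at 6 weeks, with an exact interval of 0.158 to 0.840 for counting error. HNRNPABB, its sister copy, had 3, 2, 2 and 1 reads at 26 weeks, against 4, 1, 0 and 0 reads at 6 weeks, with a ratio of 0.540 and an interval of 0.156 to 2.10.

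HNRNPLL, known in mammals for its part in the splicing of the CD45 transcript in lymphocytes, had the most reads. It had 10, 3, 8 and 1 reads at 26 weeks, against 6, 2, 2 and 0 reads at 6 weeks. Its share ratio was 0.743 (0.337 to 1.76), so that no difference was detectable at this depth. HNRNPR had 3, 5, 1 and 2 reads at 26 weeks and 3, 0, 1 and 0 reads at 6 weeks, a ratio of 0.928 (0.275 to 4.00). HNRNPUB, a copy of the nuclear scaffold protein hnRNP U, had 3, 1, 2 and 1 reads at 26 weeks and 0, 1, 2 and 0 reads at 6 weeks. Both were above 0 in all 4 libraries at 26 weeks and in 2 libraries at 6 weeks.

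Other hnRNPs gave fewer reads. HNRNPA0L(3of3) had 5, 1, 0 and 0 reads at 26 weeks and 1, 1, 1 and 0 reads at 6 weeks, whereas HNRNPA0L(1of3) was at 0 throughout. HNRNPA1B, a copy of the splicing repressor hnRNP A1, had 3, 0, 1 and 1 reads at 26 weeks and 1, 2, 0 and 0 reads at 6 weeks. HNRNPUL1 had 2, 0, 1 and 3 reads at 26 weeks and 1 read at 6 weeks, in library I. HNRNPH1L, related to the G-rich element binding hnRNP H1, had 1, 0, 2 and 1 reads at 26 weeks and no read at 6 weeks. Both copies of HNRNPM were at 0 in every library, as was HNRNPA3.

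**Figure D3:**
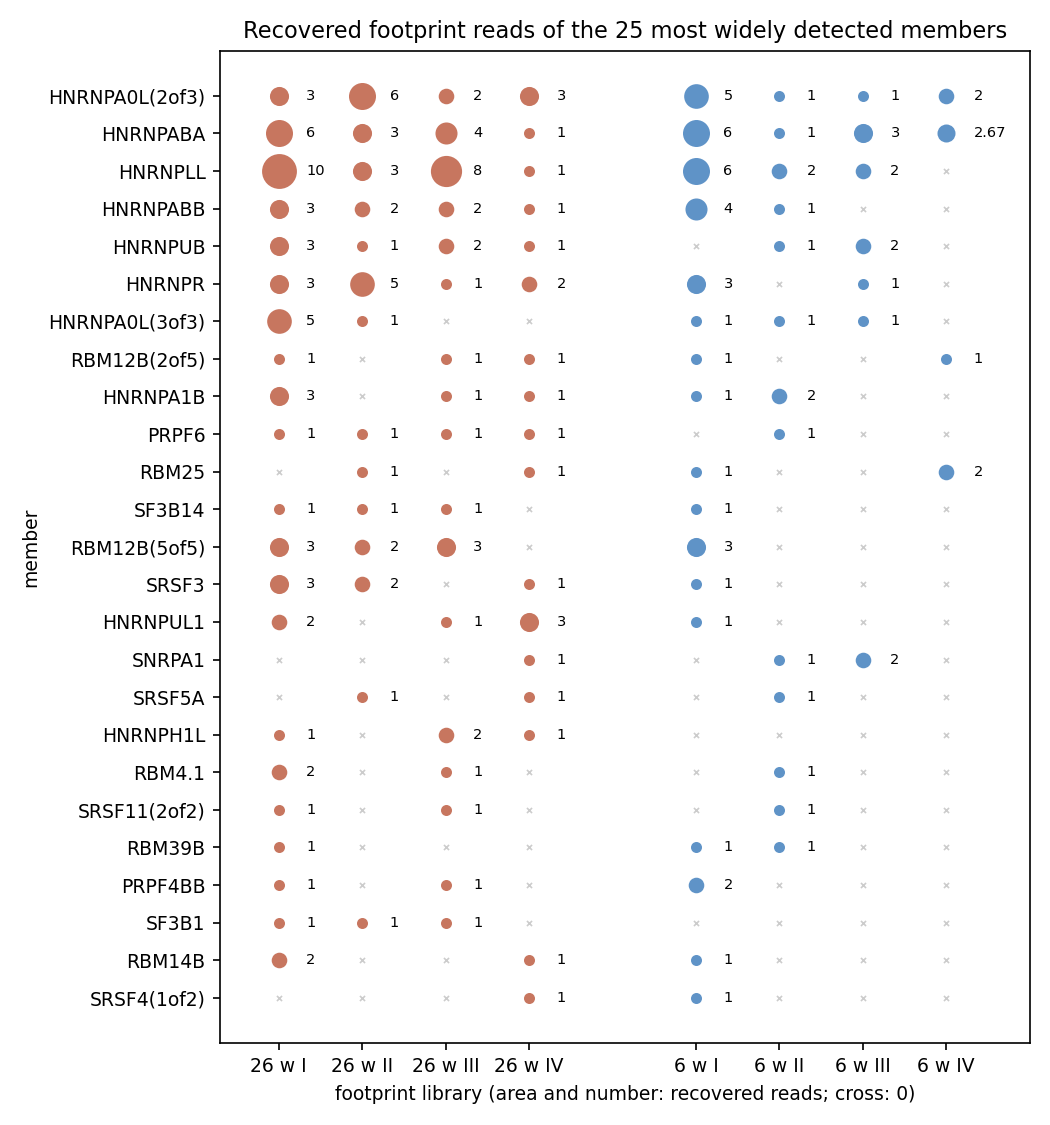
Recovered footprint reads of the 25 members above 0 in the most libraries (rows), by library (columns, 26 weeks at the left and 6 weeks at the right). Point area and number give the reads and a cross marks 0, and only the upper 2 rows have a point in every library.

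The SR proteins, which recruit spliceosome components to exons, were all above 0 in at least 1 library but held only 13 reads at 26 weeks and 6 reads at 6 weeks. SRSF3, the smallest SR protein in mammals, had 3, 2, 0 and 1 reads at 26 weeks and 1, 0, 0 and 0 reads at 6 weeks. SRSF5A had 0, 1, 0 and 1 reads at 26 weeks and 0, 1, 0 and 0 reads at 6 weeks. SRSF11(2of2) had 2 reads at 26 weeks and 1 read at 6 weeks, and SRSF4(1of2) had 1 read at each age. The family as a whole had 0.113% ± 0.045 of reads at 26 weeks and 0.129% ± 0.198 at 6 weeks (SD, n = 4 each), so that the spread at 6 weeks exceeded its mean.

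Of the 5 SR protein kinases, 3 were above 0, and the values of SRPK2(2of2) could not be turned into reads. It had 48.7 FPKM (23.8 TPM) in the 6-week library I, 5.37 FPKM (3.04 TPM) in the 26-week library III and 0 in the other libraries. Per library unit these values stood 9.23 to 1, which is not whole within the rounding of the file, so its reads are left out of the shares. SRPK2(1of2) was above 0 only in the 26-week library III, and SRPK1(2of2) had 1 read at each age.

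The SF3A and SF3B subunits belong to the U2 small nuclear ribonucleoprotein, which recognises the branch point. Unlike that of the members as a whole, their pooled share was higher at 26 weeks, on 11 reads at 26 weeks and 1 read at 6 weeks. By library this was 0.076%, 0.10%, 0.088% and 0.110% of reads at 26 weeks, against 0.049%, 0%, 0% and 0% at 6 weeks, and the ages did not overlap. The 6-week libraries II to IV, at 0, had only 959, 816.5 and 301 recovered reads in all. The pooled ratio was 3.71, with an exact interval of 0.540 to 160 for counting error. Counting error alone thus covers an equal share, and also the ratio of 0.645 of all members. SF3B1, the subunit that holds the branch point helix, had 1, 1, 1 and 0 reads at 26 weeks and none at 6 weeks. SF3B14 had 1, 1, 1 and 0 reads at 26 weeks and 1, 0, 0 and 0 reads at 6 weeks. SF3A1, SF3A3, SF3B2 and SF3B3 had reads only at 26 weeks, and SF3B5 was at 0. Of all symbols above 0, 61.5% were at 0 in every 6-week library.

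Of the 8 SNRP proteins, 4 were above 0. SNRPA1, a protein of the U2 particle, had 0, 0, 0 and 1 reads at 26 weeks and 0, 1, 2 and 0 reads at 6 weeks. SNRPA, SNRPB2 and SNRPD3 had a value in 1 library each, all at 26 weeks, as had 3038 of all 3885 symbols above 0 in 1 library. SNRPC, SNRPD2, SNRPE and SNRPG, of which the last 3 are short proteins of the Sm ring, were at 0 in all libraries.

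The PRPF proteins held 11 reads at 26 weeks and 8 reads at 6 weeks. PRPF6, which bridges particles of the tri-snRNP, had 1 read in each of the 4 libraries at 26 weeks and 1 read in the 6-week library II. PRPF8, the large scaffold around the catalytic centre, had 1, 0, 0 and 1 reads at 26 weeks and none at 6 weeks. PRPF3(1of2) and PRPF39(1of2) had no read at 26 weeks and 2 reads each at 6 weeks. PRPF4BB, a copy of a kinase of spliceosome proteins, had 1, 0, 1 and 0 reads at 26 weeks and 2, 0, 0 and 0 reads at 6 weeks.

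The RBM proteins are grouped by their name and the RNA recognition motif rather than by 1 function, and 24 of 52 were above 0. Together they had 34 reads at 26 weeks and 22 reads at 6 weeks, or 0.271% ± 0.101 and 0.607% ± 0.272 of reads (SD, n = 4 each). The ranges, 0.167% to 0.406% at 26 weeks and 0.367% to 0.998% at 6 weeks, overlapped. RBM12B(5of5) had 3, 2, 3 and 0 reads at 26 weeks and 3, 0, 0 and 0 reads at 6 weeks, and RBM12B(2of5) had 1, 0, 1 and 1 reads at 26 weeks and 1, 0, 0 and 1 reads at 6 weeks. RBM25, which in human cells influences the splicing of the apoptosis regulator BCL-X, had 0, 1, 0 and 1 reads at 26 weeks and 1, 0, 0 and 2 reads at 6 weeks. Those 2 reads in the 6-week library IV gave 416 TPM, against at most 11.3 TPM in any other library. RBM4.1, RBM14B and RBM39B had 3 or 4 reads each.

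Of the Hu proteins all 7 symbols were above 0, with 6 reads at 26 weeks and 2 reads at 6 weeks. ELAVL1(1of3), a copy of the broadly expressed HuR, had 0, 1, 1 and 0 reads at 26 weeks and none at 6 weeks. The other ELAVL1 copies and both copies of each of the neuronal genes ELAVL2 and ELAVL4 were above 0 in 1 library each. ELAVL4(1of2) was found in the 26-week library IV and ELAVL4(2of2) in the 26-week library III.

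Of the members found in 1 library only, 19 of 33 were copies. Of the 121 members, 64 were marked as copies, in 27 families. Of the copies 33 were above 0 (51.6%), 19 of these in 1 library, against 40 of 57 symbols without a copy mark (70.2%), 14 of these in 1 library. By library, 7, 4, 5 and 5 members were above 0 only in the 26-week libraries I to IV, and 3, 5, 4 and 0 members only in the 6-week libraries I to IV. This made 21 members at 26 weeks and 12 at 6 weeks. Of all 3885 symbols above 0 in 1 library, 3038 were found at 26 weeks and 847 at 6 weeks. Of the 19 copies, 10 were found at 26 weeks and 9 at 6 weeks. RBM27(1of2) and RBM27(2of2) were both found only in the 6-week library III, at 77.3 TPM and 24.4 TPM. RBM4B(1of2) was found only in the 26-week library II and RBM4B(2of2) only in the 6-week library II. The values of such members, 1.45 to 77.3 TPM, follow from the weight of a read and the length of the gene, and their number of reads cannot be told from 1 value. In 7 families, HNRNPM, PRPF4, RBM6, RBM20, RBM24, RBM34 and RBM46, no copy was above 0. Reads may be shared between copies, so the split within a family is uncertain.

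No member was called between old and young footprints. In limma on log2(TPM + 1), 65 members passed the filter of a mean of 1 TPM, and 0 of them had an adjusted p under 0.05 or an unadjusted p under 0.05. Over all 5200 symbols tested, 0 (0%) were called and 86 (1.65%) had an unadjusted p under 0.05. Of the 65, 38 (58.5%) were higher and 27 lower at 26 weeks, where 3725 of all 5200 symbols (71.6%) were higher. The median log2 difference of the members was 0.50, against a median of 0.95 over all symbols tested. This scale is shifted, since the median over all symbols was 1.94 when the 20 most abundant symbols were left out of the TPM, with a median of 1.8 for the members. The edgeR quasi-likelihood test on recovered reads could take only 7 members with at least 10 reads and called 0 of them, with 0 at an unadjusted p under 0.05, among 232 symbols of which 0 (0%) were called and 21 (9.05%) had an unadjusted p under 0.05.

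The members with the lowest unadjusted limma p all had few reads, and their adjusted p was 0.51 in each case. Higher at 26 weeks on the log2(TPM + 1) scale were HNRNPH1L by 3.03 ± 1.59 (SE), SF3B14 by 2.71 ± 1.88, SF3B1 by 2.33 ± 1.49 and RBM12B(3of5), which had 0, 1, 0 and 1 reads at 26 weeks and none at 6 weeks, by 1.83 ± 1.42. Lower were SNRPA1 at -2.86 ± 1.74, PRPF3(1of2) at -2.45 ± 1.51, PRPF39(1of2) at -1.86 ± 1.43 and RBM27(1of2) at -1.57 ± 1.37. Where 1 age was at 0 these differences depend on the pseudocount and are no bound. Among the 7 members of the count test, HNRNPABA had the largest difference, -0.77 ± 0.67 (SE) on the log2 scale, with an adjusted p of 0.74 in edgeR. The direction of members in this test depended on the scaling. With TMM, 4 of 7 members and 175 of 232 symbols (75.4%) were higher at 26 weeks, whereas by library totals 2 of 7 members and 119 of 232 symbols (51.3%) were. HNRNPLL, for example, was at 0.24 ± 0.67 (SE) on the log2 scale with TMM, although its share of reads was the lower one at 26 weeks. The median of the 7 members with TMM was 0.24, against 0.49 over all symbols.

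RNA could be followed for 20 members, those whose name stands beside 1 gene identifier in the study's own tables. The match is by name across 2 annotations, those tables are held here only in part, and the 20 are not a random draw of the members. Values are CPM (counts per 1000000 after TMM scaling). Total counts were 9461792 to 12271086 at 26 weeks and 11181136 to 13771769 at 6 weeks. The RNA libraries numbered I stood apart at both ages: in both of them, 5 of the 20 members lay above and 11 below all of libraries II to IV of the same age. Of 30 genes of the same families under other names, 9 lay above and 12 below. The share of all genes that lay so was not counted. An offset shared by the libraries I was not particular to the members: over all genes tested, their deviations from the means of their ages correlated at 0.82. RNA results are therefore given with and without them.

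With all libraries and no block of the library numbers, edgeR called 0 of the 20 members, as did DESeq2. In edgeR 3 had an unadjusted p under 0.05, all lower at 26 weeks. Over all 16759 genes, 57 (0.34%) were called by edgeR, and 2517 had an unadjusted p under 0.05. Of these 2517, 1274 (7.6% of all genes) were lower at 26 weeks. Of the 20 members, 13 were lower and 7 higher, with a median log2 fold change of -0.21, against 0.04 over all genes. The median over all genes moved to -0.07 with upper quartile scaling, and that of the members to -0.35. With that scaling 15 of the 20 members were lower, and 43.1% of all genes were higher at 26 weeks, against 54.0% with TMM.

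The 3 lowest p-values belonged to PRPF38B, PRPF8 and HNRNPH1L, all lower in old brains. PRPF8 had 84.9, 102, 85.8 and 107 CPM at 26 weeks, against 114, 127, 131 and 140 CPM at 6 weeks. It was the only one of the 20 whose ages did not overlap, where 4.77% of all genes lay wholly lower and 5.11% wholly higher at 26 weeks. Its log2 fold change was -0.43 ± 0.17 (SE), with an edgeR adjusted p of 0.295. PRPF38B, a factor of the precatalytic spliceosome, had 1.67, 4.25, 2.98 and 4.00 CPM at 26 weeks, against 3.75, 6.07, 6.57 and 7.45 CPM at 6 weeks, a log2 fold change of -0.88 ± 0.35 (SE) with an edgeR adjusted p of 0.288. HNRNPH1L had 43.7, 30.7, 29.4 and 35.6 CPM at 26 weeks, against 61.2, 45.4, 41.7 and 48.0 CPM at 6 weeks. In both, the libraries I were set off in the same direction at both ages, low in PRPF38B and high in HNRNPH1L. The log2 fold change of HNRNPH1L in RNA was -0.49 ± 0.21 (SE). Its 4 footprint reads all lay at 26 weeks, where they were 0.033% of reads. At 6 weeks, 0 reads allow a share of up to 0.0732%, so the footprints do not show a change opposite to that in RNA. Neither its RNA nor its footprint difference was called with all libraries and no block. With the library numbers I to IV as a block, edgeR called the RNA of HNRNPH1L, PRPF8 and PRPF38B. Their adjusted p in that edgeR fit was 0.0231, 0.0368 and 0.0320, where 15.9% of all genes were called.

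**Figure D4:**
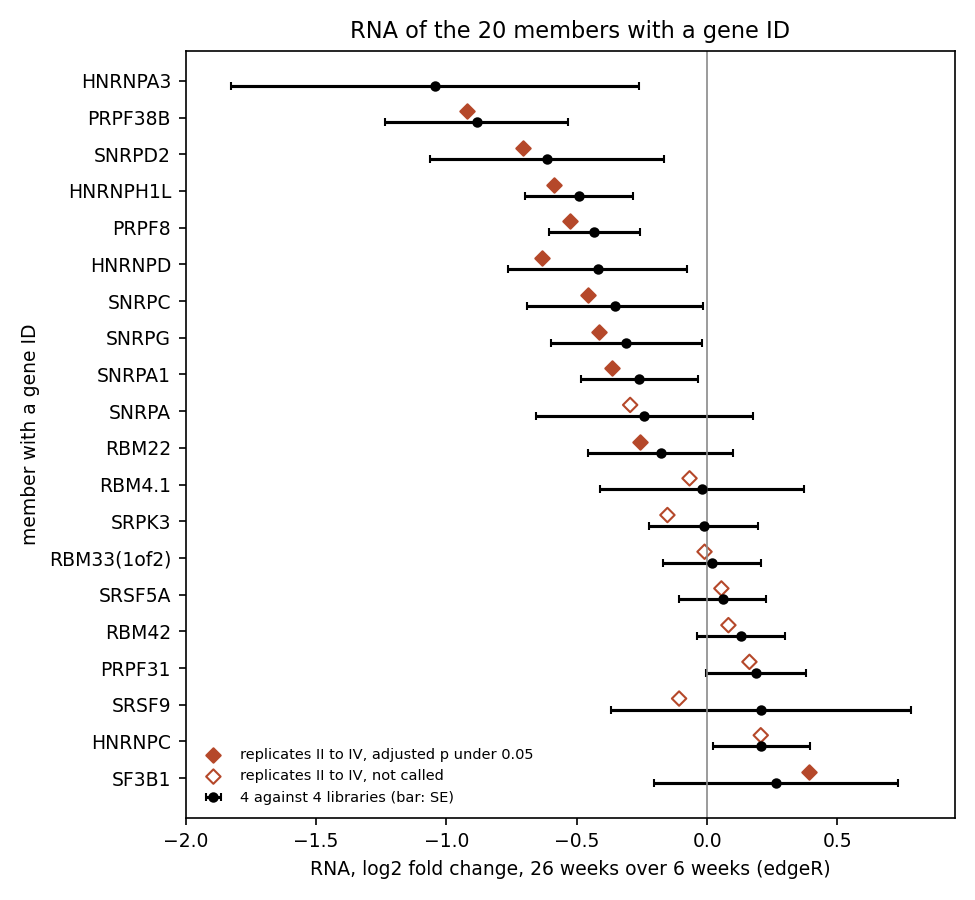
RNA log2 fold change, 26 weeks over 6 weeks (x axis), of the 20 members with a gene identifier (rows). Circles with bars are edgeR values and SE from 4 against 4 libraries, and diamonds are values from replicates II to IV, filled where the adjusted p is under 0.05, as in 10 of 19 members.

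Without the libraries I, 3 remained at each age, and edgeR called 10 of 19 members, 9 lower and 1 higher at 26 weeks. The background was high as well: 5298 of 16614 genes (31.9%) were called, 15.9% of genes lower and 16.0% higher. The lower members were the snRNP proteins SNRPD2, SNRPG, SNRPC and SNRPA1, the PRPF proteins PRPF8 and PRPF38B, the hnRNPs HNRNPH1L and HNRNPD, and RBM22, which binds the catalytic RNA core in yeast and human spliceosomes. SNRPD2, a protein of the Sm ring, had 64.7, 69.9 and 69.5 CPM in the 26-week libraries II to IV, against 116, 96.5 and 99.6 CPM in the 6-week libraries II to IV, and its log2 fold change was -0.71 with an edgeR adjusted p of 0.000821. In libraries I it had 21.6 CPM at 26 weeks and 33.4 CPM at 6 weeks. HNRNPD, which binds AU-rich elements and is also known as AUF1, had 36.5, 31.9 and 33.8 CPM at 26 weeks, against 43.3, 52.6 and 52.7 CPM at 6 weeks in libraries II to IV. With library I it had 21.8 CPM at 26 weeks and 17.4 CPM at 6 weeks, and the ages overlapped.

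SF3B1 was the member higher in old brains without the libraries I. It had 1149, 1511 and 1295 CPM at 26 weeks, against 1057, 812 and 948 CPM at 6 weeks in libraries II to IV. Its log2 fold change there was 0.39, with an edgeR adjusted p of 0.0215. In libraries I it had 2822 CPM at 26 weeks and 2826 CPM at 6 weeks, and with all 4 libraries the fold change was 0.26 ± 0.47 (SE) with an adjusted p of 0.856. The other members higher in the fit of all libraries, HNRNPC, PRPF31, RBM42, SRSF5A, SRSF9 and RBM33(1of2), had log2 fold changes of 0.02 to 0.21 there and were not called in either fit. HNRNPA3 had at most 1.52 CPM in any library and did not pass the filter without the libraries I.

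In the libraries I, SRSF9, SF3B1, SNRPD2 and SNRPA had ratios to libraries II to IV on the same side of 1 at both ages, whereas HNRNPA3, at low CPM, stood at 2.62 at 26 weeks and 0.752 at 6 weeks. SRSF9 stood 3.83 times as high in the 26-week library I as the mean of II to IV, and 2.90 times at 6 weeks. SF3B1 stood 2.14 times as high at 26 weeks and 3.01 times at 6 weeks. SNRPD2 stood at 0.318 of that mean at 26 weeks and 0.321 at 6 weeks, and SNRPA at 0.317 and 0.407. In these 4 members the differences between library I and the others were larger than those between the ages.

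The study's tables also name 31 genes of the same families, each beside 1 identifier, whose exact names have no equal among the footprint symbols. Of these, 30 passed the filter. Some share the base symbol of a member, as SRSF4 does with SRSF4(1of2), so whether they are other genes than the members cannot be told. ELAVL1 and HNRNPAB, which stand beside several identifiers each, were left out. Of the 30, edgeR called 0 with all libraries and no block, and DESeq2 called 0. In that edgeR fit 3 had an unadjusted p under 0.05, as had 2517 of all 16759 genes. With the block, edgeR called 6 of them, where 15.9% of all genes were called. In edgeR 14 were called without the libraries I, 10 lower and 4 higher at 26 weeks, where 31.9% of all genes were called. The following were chosen after their values were seen. HNRNPA0B had 60.3, 124, 94.1 and 123 CPM at 26 weeks, against 83.1, 213, 223 and 208 CPM at 6 weeks, with a log2 fold change of -0.86 ± 0.35 (SE, edgeR adjusted p = 0.302) that became -1.01 without the libraries I (adjusted p = 0.00129). SRSF4 stood 5.45 times as high in the 26-week library I as in the mean of II to IV, and 5.54 times at 6 weeks. RBM8A, a core protein of the exon junction complex, stood at 0.272 of that mean at 26 weeks and 0.248 at 6 weeks.

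**Figure D5:**
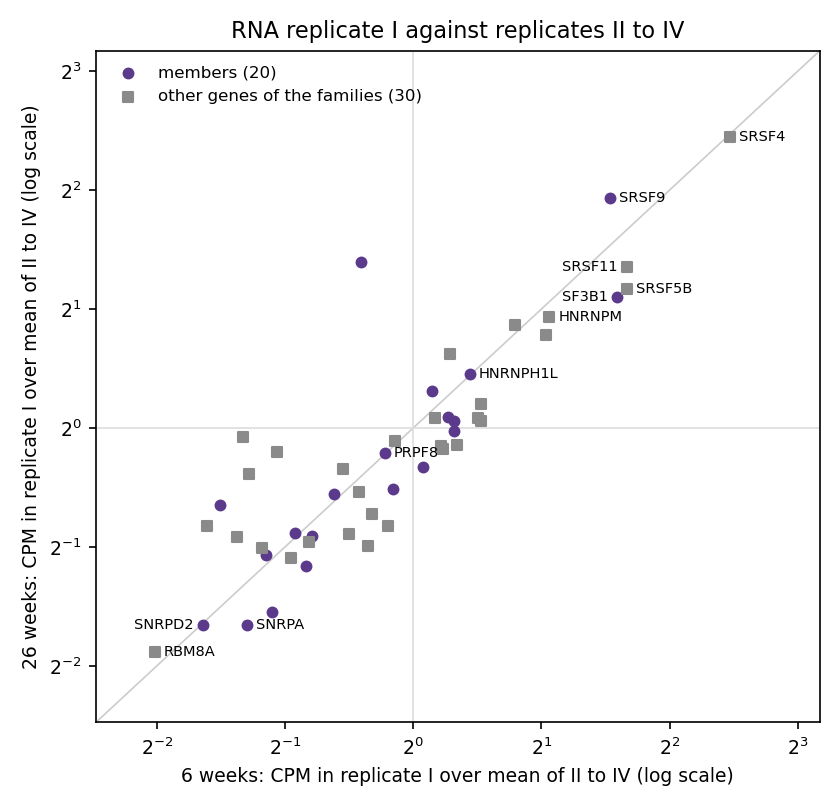
CPM in RNA library I over the mean of libraries II to IV, at 26 weeks (y axis) and at 6 weeks (x axis), both on log scales, for 20 members and 30 genes of the same families under other names. Genes near the diagonal differ alike at both ages, with SRSF4 at 5.45 and 5.54 and RBM8A at 0.272 and 0.248.

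Of the 20 members with RNA values, 11 were above 0 in footprints. The other 9, SNRPC, SNRPD2, SNRPG, RBM22, RBM33(1of2), RBM42, PRPF38B, HNRNPA3 and SRPK3, had 0.449 to 261 CPM in RNA at 26 weeks and no footprint value above 0 in any library, which at the depth of these libraries does not show that they were not translated. SNRPD2, SNRPG, SNRPC, RBM22 and PRPF38B, called lower in RNA at 26 weeks without the libraries I, could thus not be compared in footprints.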

How the data were processed

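The deposited footprint table holds FPKM by gene symbol, made by the authors with STAR and RSEM 1.3.1 on the NotFur1 genome. For RNA, the authors deposited counts per gene (bcl2fastq 1.8.4, STAR 2.4.1d, featureCounts 1.4.6-p4, per the submitters' processing notes). The study's methods name a killifish genome build and unstranded counting for RNA-seq, but with another aligner, so whether they cover these counts is not clear, and reads of overlapping or antisense genes cannot be told apart. The deposited RPKM values were not used.

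FPKM were rescaled to TPM. Reads were recovered from the ratios between libraries, with 1 to 3 reads tried for the lowest value, a slack of 0.05% per step and the rounding of the file. Of 2587 symbols above 0 in at least 2 libraries, 96.0% came out whole, and 71 symbols gave none, the most abundant among them. From 4 libraries on, a symbol with 75% of its values whole was kept. A symbol above 0 in 1 library was taken as 1 read, which can understate it.

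Footprints were compared with limma 3.58.1 (trend) on log2(TPM + 1) where the mean reached 1 TPM, and as recovered reads (at least 10) with edgeR 4.0.16. RNA was compared with edgeR 4.0.16 (TMM, quasi-likelihood, filterByExpr; SE from the F statistic), and with DESeq2 1.42.0 as an alternative, under R 4.3.3. P-values were adjusted by Benjamini and Hochberg over all features tested, with a threshold of 0.05. Intervals are exact at 95%. Scripts were tested on simulated data.

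Named in footprints were the 25 members above 0 in the most libraries, and the 4 with the lowest limma p in each direction. A planned rule for members with 3 or more reads, all in 1 library, could not be applied. A symbol above 0 in 1 library does not show its number of reads and was taken as 1 read. Named in RNA were up to 8 members with the lowest p in each direction. Other members named, among them those above 0 in 1 library, were chosen after their values were seen. Members and lists were chosen with earlier results of these data known. Of 3386 identifiers named in the study's tables, 20 matched 1 member each; a further member, RBM25, matched several and was left out. Protein and nucleotide sequences were not analysed here.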

Additional observations from a re-analysis of the deposited data

Results flagged for a closer look

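In 57 groups of 4 libraries, 11 values stood apart from the other 3 by Dixon's criterion. Chance gives this in about 1 of 20 groups of independent, normally distributed values. That rate does not hold for these groups. A value of 1 read against 0 in the other libraries is always set apart, and the RNA groups share the libraries I. In footprints the values set apart in TPM stood on few reads. HNRNPA0L(2of3) had 601 TPM in the 6-week library IV, against 73.8 TPM in the next library, and HNRNPABA had 368 TPM there, against 53.5 TPM. HNRNPABB had 2.18 TPM in the 26-week library IV, against 30.8 TPM in the next library. The weight of a read in TPM was lowest in the 26-week library IV and highest in the 6-week library IV. In the 6-week library I, SR protein kinases and SF3A and SF3B subunits each had 0.0494% of reads, which is 1 read, against 0 in the other 6-week libraries.

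In RNA, 6 values stood apart, all in the libraries I. At 26 weeks SNRPD2 was low at 21.6 CPM, SNRPA1 was low at 36.1 CPM and SRSF9 was high at 512 CPM. At 6 weeks SF3B1 was high at 2826 CPM, SRSF5A at 66.9 CPM and SRSF9 at 390 CPM. The nearest other library had 64.7 CPM for SNRPD2, 52.3 CPM for SNRPA1 and 170 CPM for SRSF9 at 26 weeks, and 1057 CPM for SF3B1, 54.0 CPM for SRSF5A and 154 CPM for SRSF9 at 6 weeks. What set the libraries I apart was not tested.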

How the results depend on the processing

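In footprints, the count of 0 members called held under all 14 alternatives of limma and all 11 of the count test. Over all symbols tested, the limma alternatives called 0 as well. The count test called at most 1 symbol in any setting, as in 1 of 232 by library totals. A count of 0 is thus not particular to the members. The 8 named members kept their direction in all 104 fits that held them. For most this was fixed beforehand: HNRNPH1L, SF3B1, RBM12B(3of5), PRPF3(1of2), PRPF39(1of2) and RBM27(1of2) had values at only 1 age, so no fit could turn them. The difference in the members' share was -0.91 to -0.75 points when 1 library was left out; chosen after seeing the data, it was -0.52 without HNRNPABA and -1.42 with 3 reads for its lowest value. In RNA, 0 members were called when 1 library was left out, 10 with replicates II to IV only, 4 with a replicate block in edgeR, where 2658 genes (15.9%) were called, and 6 with the block in DESeq2, where 3250 genes (19.4%) were called. In edgeR the block called PRPF38B, PRPF8, HNRNPH1L and SNRPD2, with adjusted p of 0.0125 to 0.0368. The main fits did not take the numbers as pairs, by a rule that every same-numbered correlation exceed 0.1, which 1 of 4 did not. The deviations of same-numbered RNA libraries correlated at 0.82, 0.52, 0.071 and 0.60 for I to IV. The 26-week library II correlated best with the 6-week library III, at 0.69. In footprints the same-numbered correlations were -0.003 to 0.028. The RNA deviations were taken from age means that include the libraries I, so the offset of these libraries also moves the deviations of II to IV. The RNA correlations therefore cannot decide whether the numbers are pairs, and the rule does not settle it. The count of 0 members called in the main RNA fit thus rests on leaving the block out. DESeq2 without a block called 838 genes, against 57 by edgeR, and 0 members; edgeR called 37 genes without the filter, 0 to 638 when 1 library was left out and 5298 with replicates II to IV only. Upper quartile scaling of the recovered reads was not run, since its quantiles were 0. 

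Of the 15 members named in RNA, directions turned in 4, none called in the fits where they turned. SF3B1 was at -0.17 to 0.86 when 1 library was left out. SRSF9 was at -0.64 to 0.77 so, and at -0.11 with replicates II to IV only. SRSF5A was at -0.029 to 0.15 so, at -0.062 with upper quartile scaling and at -0.014 without the filter. RBM33(1of2) was at -0.080 to 0.11 so, at -0.10 with upper quartile scaling, -0.034 with DESeq2, -0.054 without the filter, -0.0098 with replicates II to IV only and -0.031 with the block in DESeq2. Depth limits the footprints: a member at 0 in the 4101 reads at 6 weeks may hold up to 0.0732% of reads, and at 26 weeks up to 0.0247%.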
